A study of Mus musculus with 5480 samples.

Results

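Early airway smooth muscle is the authors' name for one of the mesenchymal cell subtypes of the newborn mouse lung, and its cells were compared here between mice kept in hyperoxia, which is oxygen-enriched air, and mice kept in normal air. Members were all cells with that subtype label from mice at postnatal day 7 (P7), without the wells in columns 1 to 8 of the second plate of the male hyperoxia mouse. This gave 213 of the 5480 cells of the series. The female hyperoxia mouse gave 58 cells, the male hyperoxia mouse 16, the female mouse in normal air 75 and the male mouse in normal air 64. One of the 58 cells came from a sort for CD31, a marker of vessel lining, and all others from the mesenchymal sort. The wells left out held 93 cells, of which 6 were early airway smooth muscle. Each group was thus 1 female and 1 male mouse. The labels give day 7, the treatment and the sex of each mouse. Strain, genotype, oxygen concentration and length of exposure are not given in the sources used here. The 2 mice at postnatal day 1 (P1) in normal air, with 38 and 23 such cells, entered the fit to help estimate the spread between mice, and their values are given beside the others.

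Airway smooth muscle wraps the conducting airways, sets their calibre by contraction and lays down elastic fibres and collagens around itself. Contraction runs through calcium, myosin light chain kinase and the actin and myosin proteins that the factor myocardin switches on. Newborns treated with oxygen can develop bronchopulmonary dysplasia, a lung disease with simplified alveoli, abnormal elastic fibres and reactive airways, and neonatal hyperoxia in mice is a common model of it. High oxygen damages DNA, and the factor p53 then switches on genes for cell cycle arrest, DNA repair and cell death, among them the cyclin-dependent kinase inhibitor Cdkn1a (p21).

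The unit of every comparison was the mouse. Reads were summed over the cells of a mouse, giving 32590471 and 13689091 reads in the female and the male hyperoxia mouse and 102846730 and 62487781 in the female and the male mouse in normal air. Median reads per cell were 408686 and 677464 under hyperoxia against 1382810 and 795643, so every gene was also tested after each cell had been thinned at random to 100000 reads, which kept 57, 15, 75 and 63 cells. At that equal depth a cell of the hyperoxia mice still had more genes detected, with medians of 3650 and 4346 against 3186 and 2993. The mean of the hyperoxia mice was 3998 ± 492 genes and that of the normal air mice 3089.5 ± 136 (SD, n = 2 mice each), 908.5 genes apart. With 2 against 2 mice an exact permutation test cannot give a two-sided p under 0.333. This gap in detected genes runs alongside the gene differences described here, and its part in them was not tested.

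By the labels, no sequencing run of these cells held both treatments, so hyperoxia and sequencing run cannot be told apart. The cells held markers of their label, though not every one. The 10 markers of airway smooth muscle summed to 20193 and 18061 CPM (reads scaled to the size of the library) under hyperoxia and to 17407 and 22054 CPM in normal air. The 7 myofibroblast markers summed as high, to 19502 and 22694.5 CPM under hyperoxia and to 19952 and 20932 CPM in normal air. These sums therefore do not set the cells apart from myofibroblasts. Smooth muscle actin (Acta2) made up the largest part of each airway smooth muscle sum. The muscarinic receptor Chrm3, also among the 10 markers, was all but absent. Hhip, the hedgehog-binding protein that marks this muscle, stood at 866 and 1433 CPM under hyperoxia and at 987 and 1460.4 CPM in normal air. Over all genes tested, both hyperoxia mice lay below both normal air mice in 19.8% and above them in 16.9%, the background for these marker counts. Of 12 vascular smooth muscle and pericyte markers 10 could be tested, 3 were lower in both hyperoxia mice and none was higher. These 12 markers summed to 840 and 1068 CPM under hyperoxia and to 1071 and 1231 CPM in normal air. Within that list the pericyte marker Higd1b had 0 reads in all 4 mice. The blood cell marker Ptprc and the vessel marker Cdh5 stayed under 0.1 CPM in each of the 4. The 12 endothelial markers, Cdh5 among them, still summed to 107 and 78.0 CPM under hyperoxia and to 103 and 136 CPM in normal air. The 13 epithelial markers summed to 21.2 and 24.9 CPM under hyperoxia and to 134 and 71.9 CPM in normal air, with 4 of 7 tested markers lower in both hyperoxia mice and none higher. The remaining marker lists gave few genes: both hyperoxia mice were above for 1 of 8 alveolar fibroblast, 1 of 6 adventitial fibroblast, 2 of 7 myofibroblast, 1 of 5 immune, 1 of 7 striated muscle and 1 of 2 nerve markers tested. They were below for 2 adventitial, 1 myofibroblast, 2 of 5 endothelial, 1 striated muscle and 1 of 1 erythroid marker, and no mesothelial marker could be tested. The immune markers summed to 80.7 CPM in the female hyperoxia mouse and to between 1.46 and 12.1 CPM in the others. Larger sums came from other lists. Striated and heart muscle markers summed to 1207 and 21.7 CPM under hyperoxia and to 327 and 1266 CPM in normal air. For adventitial fibroblast markers the sums were 855 and 1342 CPM against 1213 and 1030 CPM, and for alveolar fibroblast markers 239 and 124 CPM against 127 and 133 CPM. The part of other cell types in the gene differences was not tested.

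The share of early airway smooth muscle among the cells of a mouse was 11.4% in the female hyperoxia mouse (58 of 509 cells, 95% Wilson interval 8.92% to 14.4%) and 3.49% in the male (16 of 458 cells, 2.16% to 5.60%). In normal air it was 12.4% (9.99% to 15.2%) and 11.2% (8.89% to 14.1%), and these intervals cover counting error only. The male hyperoxia mouse alone lay apart. Over the mice the share was lower by 0.78 on the log2 scale (SE 0.442), which did not pass the test over 14 subtypes (edgeR, adjusted p = 0.168). Without the female hyperoxia mouse the difference was -1.59 (adjusted p = 0.0254), and without the male it was -0.21 (adjusted p = 0.917). Each of these fits has 1 hyperoxia mouse, which is assumed to vary like the other groups, so neither p covers the variation between hyperoxia mice.

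Across all genes, the contrast of hyperoxia with normal air called 0 of 12785 genes (0%) at an adjusted p of 0.05 with edgeR's quasi-likelihood test on the summed reads. At an unadjusted p under 0.05 there were 264 genes higher (2.06%) and 250 lower (1.96%). With cells thinned to 100000 reads, 3 of 11696 genes were called (0.0256%), and all 3 rose: Cdkn1a, Wif1 and Mgp, each with an adjusted p of 0.0144. With cells thinned to 50000 reads, 25 of 10919 genes were called (0.229%), 19 up and 6 down. Of these 25 only Cdkn1a, Wif1 and Mgp were also called at 100000 reads, and none was called on summed reads. Other genes said below to rise or fall at 50000 reads thus passed the threshold at that depth but in neither of these analyses. As a second description that needs no test, both hyperoxia mice lay above both normal air mice in 16.9% of the genes tested on summed reads and below them in 19.8%, and at 100000 reads a cell in 17.1% and 20.1%. These shares are the background against which the gene lists are read. The count of calls was 24 when either the female or the male P1 mouse was left out, 5 in a fit of the 4 mice at P7 with sex as a term, and 223 with DESeq2, of which 115 were higher.

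**Figure D1:**
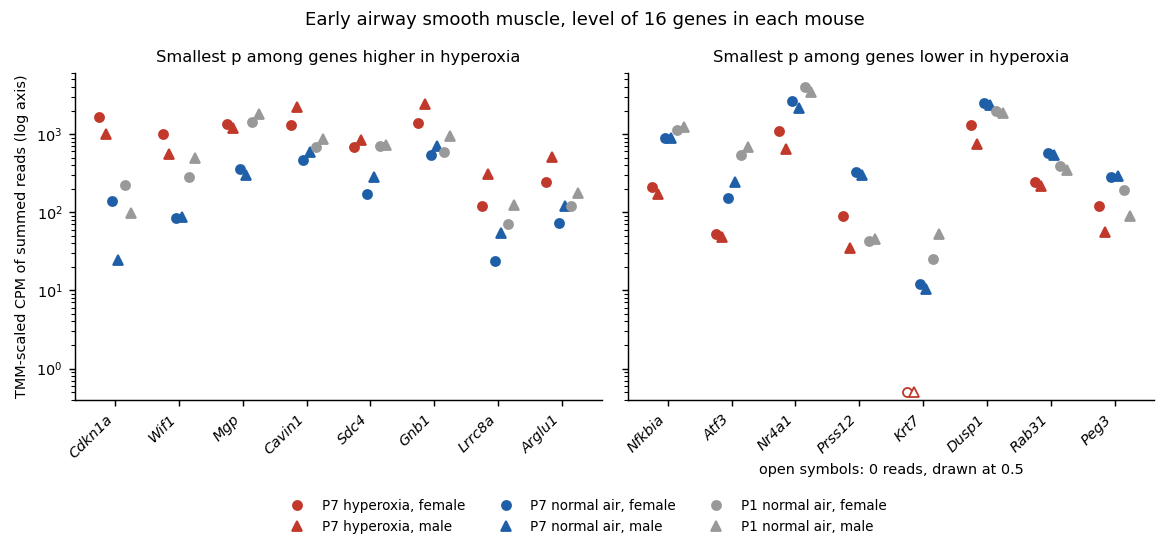
TMM-scaled CPM (log axis) of the 8 genes with the smallest p in each direction, one symbol per mouse (circles female, triangles male; red hyperoxia at P7, blue normal air at P7, grey normal air at P1; Krt7 has 0 reads in both hyperoxia mice and is drawn at 0.5). Red and blue symbols do not overlap for any of the 16 genes. The genes were chosen for a small p and the same direction in both sexes, so this separation is no independent evidence. The grey symbols lie near the red ones for Mgp, Sdc4 and Prss12 and near or above the blue ones for Nfkbia and Nr4a1.

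Cdkn1a, which halts the cell cycle by binding cyclin-dependent kinases, was at 1653 and 1001 CPM in the female and male hyperoxia mice and at 139.6 and 24.7 CPM in normal air. The groups did not overlap, and the P1 mice, at 223 and 98.3 CPM, lay far nearer to normal air at P7. The difference was 4.41 on the log2 scale (SE 0.467, adjusted p = 0.054) on summed reads and 4.66 (SE 0.571, adjusted p = 0.0144) at equal depth. More cells held the transcript. At 100000 reads a cell, 41 of 57 cells (71.9%) and 9 of 15 cells (60.0%) of the hyperoxia mice held a Cdkn1a read, against 10 of 75 (13.3%) and 2 of 63 (3.17%). The median cell had 183 and 22.0 reads under hyperoxia and 0 in both normal air mice. On summed reads 1 cell gave 54.9% and 55.7% of the Cdkn1a reads of the female and male normal air mice. Plates repeated the level within mice, at 1268 and 2210 CPM on the 2 plates of the female hyperoxia mouse and 954 and 1101 CPM on those of the male (library-size CPM).

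**Figure D2:**
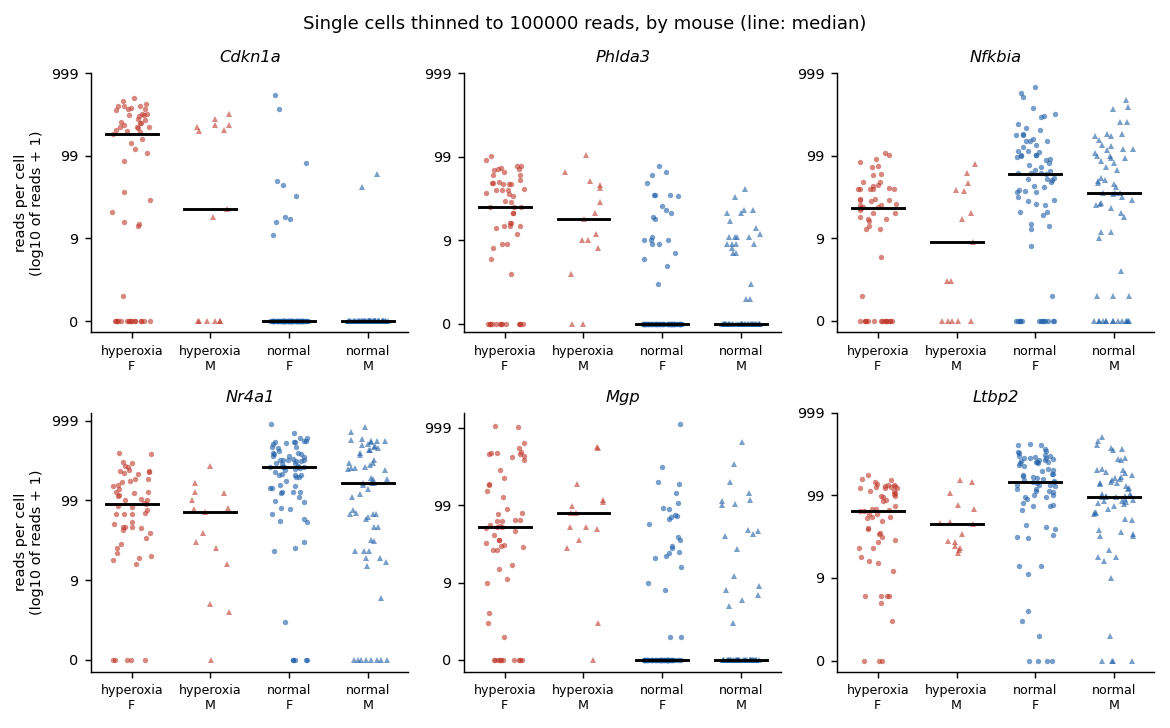
Reads of 6 genes in single cells thinned to 100000 reads (vertical axis log10 of reads + 1, ticks at 0, 9, 99 and 999 reads), one point per cell and one column per mouse, with the median as a line. The median cell of both normal air mice has 0 reads of Cdkn1a, Phlda3 and Mgp, while the medians of both hyperoxia mice lie above 0, and for Nfkbia, Nr4a1 and Ltbp2 the hyperoxia medians are the lower ones.

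Of the 25 p53 target genes listed, 23 passed the filter on low counts. Both hyperoxia mice lay above both normal air mice for 15 of the 23 and below for 3, where all genes gave 16.9% and 19.8%, and the median log2 difference was 1.20 against -0.07 over all genes. At equal depth 18 of 23 were above and 1 below, with a median of 1.30. The list was drawn up with earlier results of these data known, so its direction is not independent evidence. On summed reads 0 of its members passed the adjusted threshold and 7 had an unadjusted p under 0.05, all higher.

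The arrest gene Cdkn1a, given above, belongs to this list, and further members follow. Phlda3, a p53-induced repressor of the kinase Akt, had 282 and 228 CPM under hyperoxia and 80.9 and 45.9 CPM in normal air, a log2 difference of 2.05 (SE 0.398, adjusted p = 0.37). It rose at 50000 reads a cell (log2 2.11, adjusted p = 0.0306). Aen, an apoptosis-enhancing nuclease, stood at 106 and 114 CPM against 16.6 and 3.45 CPM, a log2 difference of 3.56 (SE 0.915), and it also rose at 50000 reads a cell (adjusted p = 0.0311). In both genes each hyperoxia mouse lay above every mouse in normal air, P1 included. Btg2, an antiproliferative gene, was at 2702 and 3145 CPM against 1692 and 2118 CPM, and here the P1 mice were far higher still, at 6779 and 4961 CPM. Zmat3, a p53-induced RNA-binding protein, was at 48.0 and 48.7 CPM against 24.6 and 25.7 CPM.

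Among other genes tied to cell death, Bax, which opens the mitochondrial outer membrane, was at 326 and 212 CPM under hyperoxia and 104 and 106 CPM in normal air (log2 1.34, SE 0.37, adjusted p = 0.955). The death receptor gene Tnfrsf10b had 32.2 and 24.4 CPM against 0.247 and 0 CPM, with 1104 and 334 reads against 26 and 0. Fas, another death receptor, was at 67.8 and 57.0 CPM against 9.57 and 16.8 CPM, but 72.6% of its reads in the male hyperoxia mouse came from 1 cell. Eda2r, a receptor of the same family, was at 16.6 and 44.6 CPM against 3.71 and 0.129 CPM. Mdm2, which removes p53 and is itself a target, overlapped between groups on summed reads, with 62.5 and 97.9 CPM against 71.6 and 29.4 CPM, and did not overlap at equal depth. Plk2, a target kinase, went the other way, with 188 and 107 CPM against 216 and 226 CPM. None of Bax, Tnfrsf10b, Fas, Eda2r, Mdm2 and Plk2 passed the adjusted threshold on summed reads or at either thinned depth.

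The promoters of 2 members are shown because they hold a pair of p53 core motifs, printed in capitals, in the 250 bases before a RefSeq gene start (assembly GRCm38.p6, both strands searched, letters 5′ to 3′ on the gene's strand). The build named in the submitters' processing notes is a human one, so the coordinates are those of RefSeq and not of the files. The windows are chr17:29090729-29090978 (plus strand) for Cdkn1a, one of 2 starts listed, and chr7:78895808-78896057 (plus strand) for Aen.
Cdkn1a: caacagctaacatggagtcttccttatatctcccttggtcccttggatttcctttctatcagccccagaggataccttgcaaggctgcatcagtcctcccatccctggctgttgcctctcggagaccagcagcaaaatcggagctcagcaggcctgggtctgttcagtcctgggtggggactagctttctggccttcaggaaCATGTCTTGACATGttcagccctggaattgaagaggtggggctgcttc
Aen: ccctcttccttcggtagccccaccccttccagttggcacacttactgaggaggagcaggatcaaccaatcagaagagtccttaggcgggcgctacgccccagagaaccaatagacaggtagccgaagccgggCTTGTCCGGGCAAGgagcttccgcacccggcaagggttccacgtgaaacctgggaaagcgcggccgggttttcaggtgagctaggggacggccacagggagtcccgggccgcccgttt
In the Cdkn1a window the pair spans bases 48 to 35 before the start and in the Aen window bases 118 to 105. Such a pair was found for 3 of the 19 p53 targets with a window, namely these 2 and Bbc3, against 6.7% of 27025 genes. A match describes letters and is no evidence of binding.

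Among genes of the G1 phase, the kinase gene Cdk6 was at 328 and 406 CPM under hyperoxia and 123 and 121 CPM in normal air, a log2 difference of 1.57 (SE 0.338, adjusted p = 0.508). Its partner Ccnd2 was at 462 and 909 CPM against 317 and 289.6 CPM. Of 16 G1 cyclins and inhibitors tested, 4 were above and 2 below. Genes of S phase and mitosis were sparse. Mki67, a mark of cycling cells, had 49 reads and 1 read in the female and male hyperoxia mice against 2194 and 2753 reads in normal air, which is 1.43 and 0.073 CPM against 20.9 and 44.6 CPM. At equal depth it was seen in 1.75% and 0% of the hyperoxia cells and in 9.33% and 12.7% of the normal air cells. Of 22 division genes tested 9 lay below and 2 above, and single cells weighed heavily: Top2a, which untangles DNA, was at 108 CPM in the male normal air mouse, with 96.0% of the reads from 1 cell, and under 0.2 CPM in the other 3 mice at P7. Of 25 DNA repair genes 8 lay below and 2 above, with a median of -0.70. At 100000 reads a cell 6 of 24 lay below and 0 above, with a median of -0.45. At 50000 reads 5 of 22 lay below and 3 above, with a median of -0.21. For all of these lists, the shares over all genes on summed reads were 19.8% below and 16.9% above.

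**Figure D3:**
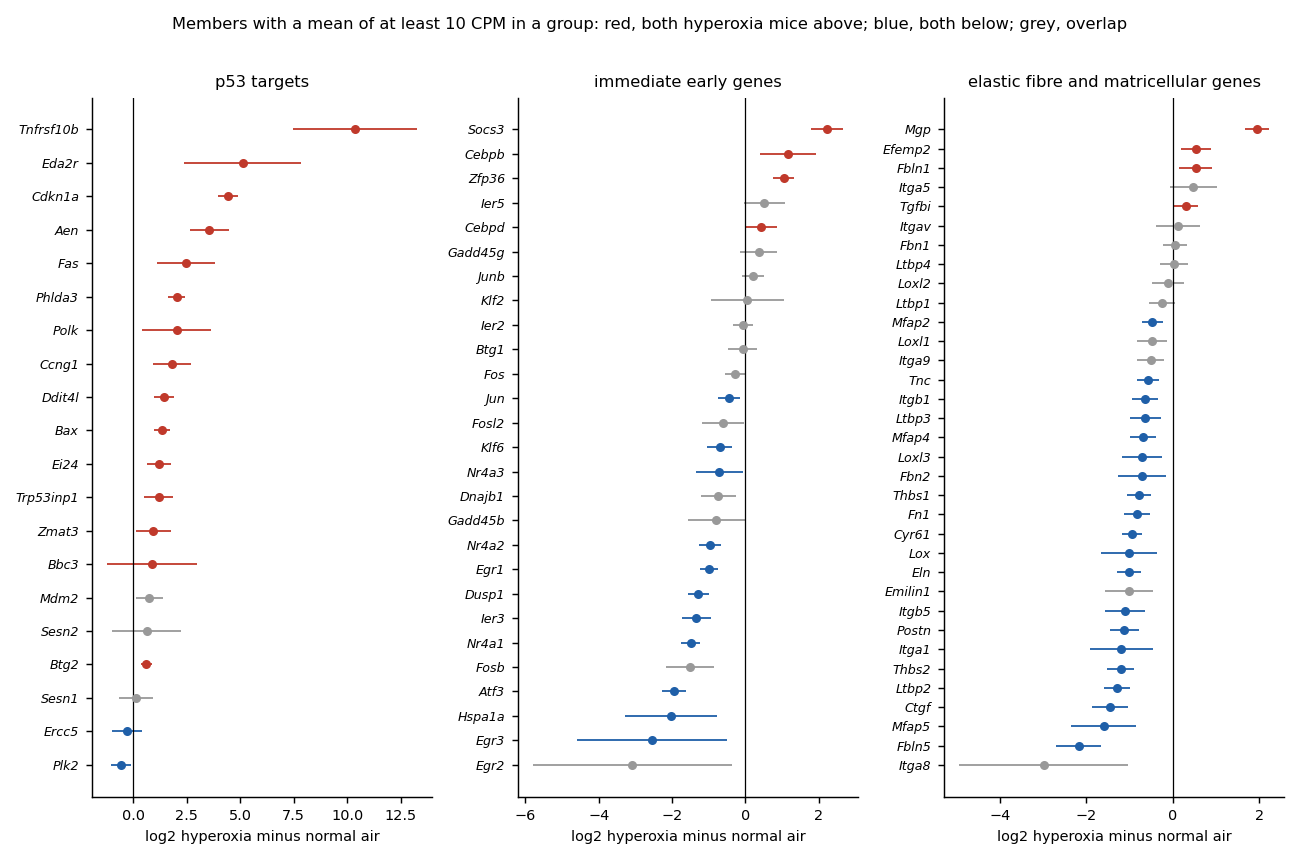
Log2 difference between hyperoxia and normal air (points, bars SE) of list members whose mean reached 10 CPM in either group, for p53 targets, immediate early genes and elastic fibre with matricellular genes. Red points have both hyperoxia mice above both normal air mice, blue both below, grey overlap; most p53 targets are red, while Mgp, Efemp2, Fbln1 and Tgfbi are red in a matrix panel with more blue than red points.

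Several feedback genes of stress signalling were lower under hyperoxia. Nfkbia, which encodes the inhibitor that holds NF-kB in the cytoplasm, was at 209.7 and 170.5 CPM under hyperoxia and at 883 and 881 CPM in normal air, with the P1 mice at 1113 and 1243 CPM. The 2 normal air mice were almost equal, and both hyperoxia mice stood far below them. The log2 difference was -2.22 (SE 0.278, adjusted p = 0.113) on summed reads, and Nfkbia fell at 50000 reads a cell (-1.93, adjusted p = 0.00378). Nr4a1, an orphan nuclear receptor induced within minutes of a stimulus, was at 1086 and 651 CPM against 2647 and 2137 CPM (log2 -1.49, SE 0.257, adjusted p = 0.281), and it fell at 50000 reads (adjusted p = 0.0108). Dusp1, a phosphatase that shuts off MAP kinases, was at 1289.5 and 743 CPM against 2481 and 2331 CPM, and fell at 50000 reads (adjusted p = 0.0349). Atf3, a stress-induced repressor, was at 52.1 and 48.7 CPM against 153 and 246 CPM, and the P1 mice held 546 and 683 CPM (log2 -1.94, SE 0.332, adjusted p = 0.281).

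The other immediate early genes did not follow one direction. Egr1, a growth-induced zinc finger factor, was at 949.7 and 1055 CPM against 1758 and 2274 CPM, and Ier3 at 362 and 143 CPM against 507 and 625 CPM. Fos and Junb, which form the factor AP-1, overlapped, with Fos at 3462 and 3937 CPM against 5576 and 3522 CPM. Socs3, which blocks cytokine signalling, was higher, at 234 and 352 CPM against 87.2 and 43.2 CPM (log2 2.22, SE 0.432, adjusted p = 0.37), and it rose at 50000 reads (2.31, adjusted p = 0.0184). Zfp36, which destroys cytokine messages, was at 640.3 and 1069 CPM against 412 and 401 CPM. Of 29 immediate early genes tested, 5 were above and 11 below, with a median log2 difference of -0.62, and 6 and 13 of 28 at equal depth. All genes gave 16.9% above and 19.8% below, and 17.1% and 20.1% at equal depth. On summed reads the genes above were thus near the background. In the 6 cells of the wells left out, Nfkbia stood at 2762 CPM, above every mouse used (library-size CPM).

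The promoters of 4 of the lower genes are shown next. Capitals mark an NF-kB site in Nfkbia and the letters TGACG or their complement CGTCA, the half-site of the cAMP response element that CREB and ATF factors bind, in Nr4a1, Atf3 and Dusp1. The windows, again 250 bases before a RefSeq start on GRCm38.p6, are chr12:55492648-55492897 (minus strand), chr15:101266596-101266845 (plus), chr1:191183334-191183583 (minus) and chr17:26508473-26508722 (minus).
Nfkbia: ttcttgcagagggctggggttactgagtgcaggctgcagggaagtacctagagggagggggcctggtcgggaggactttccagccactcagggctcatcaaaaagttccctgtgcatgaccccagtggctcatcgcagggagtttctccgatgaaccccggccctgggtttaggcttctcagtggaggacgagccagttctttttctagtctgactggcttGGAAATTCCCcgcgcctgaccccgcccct
Nr4a1: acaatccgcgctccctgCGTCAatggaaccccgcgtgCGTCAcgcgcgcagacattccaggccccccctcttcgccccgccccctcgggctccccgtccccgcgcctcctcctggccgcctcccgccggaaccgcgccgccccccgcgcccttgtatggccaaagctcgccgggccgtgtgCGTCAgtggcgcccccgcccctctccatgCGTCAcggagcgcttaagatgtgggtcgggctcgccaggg
Atf3: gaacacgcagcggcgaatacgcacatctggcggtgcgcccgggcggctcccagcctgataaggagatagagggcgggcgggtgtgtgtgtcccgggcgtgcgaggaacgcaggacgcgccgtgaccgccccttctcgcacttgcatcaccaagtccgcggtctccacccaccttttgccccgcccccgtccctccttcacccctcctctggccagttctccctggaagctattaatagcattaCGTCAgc
Dusp1: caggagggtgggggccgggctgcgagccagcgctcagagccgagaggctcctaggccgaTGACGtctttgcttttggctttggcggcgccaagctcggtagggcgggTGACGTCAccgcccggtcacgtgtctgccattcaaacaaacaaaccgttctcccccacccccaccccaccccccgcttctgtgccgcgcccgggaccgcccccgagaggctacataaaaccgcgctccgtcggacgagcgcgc
Nr4a1 holds 4 such half-sites, Dusp1 3, of which 2 overlap as one full palindrome, and Atf3 holds 1, at bases 7 to 3 before the start. The Atf3 window also holds a pair of p53 core motifs, left in lower case here. Such a pair was found for 1 of the 25 immediate early genes with a window, which is Atf3, against 6.7% of all genes. The half-site was found for 13 of the 25 immediate early genes with a window (52.0%) against 19.79% of 27025 genes. It was present in 5 of 9 genes with both hyperoxia mice below, in 7 of 12 genes that overlapped and in 1 of 4 genes with both above. An NF-kB site was found for 7 of the 25 and for 8.23% of all genes.

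Of 21 elastic fibre genes tested, 10 lay below and 2 above, with a median log2 difference of -0.64. Of 19 adhesion and matricellular genes 11 lay below and 3 above, with a median of -0.78. Of 14 fibrillar and associated collagens 6 lay below and none above. Of 16 basement membrane genes 7 lay below and 2 above. Over all genes 19.8% lay below and 16.9% above.

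Eln, the tropoelastin gene that makes up the core of elastic fibres, was at 1178 and 1680.3 CPM under hyperoxia and 3133 and 2626 CPM in normal air, with the P1 mice at 1193 and 1090.5 CPM. It differed by -1.02 on the log2 scale (SE 0.277, adjusted p = 0.923) on summed reads, where 59.3% of the reads of the male hyperoxia mouse came from 1 cell. With cells at 50000 reads Eln fell (-1.27, adjusted p = 0.0417). Fbln5, the fibulin that guides elastin onto its scaffold, was at 31.1 and 37.4 CPM against 205 and 120.5 CPM, beside 35.2 and 22.3 CPM at P1. It was found in 19.3% and 13.3% of the hyperoxia cells and 46.7% and 41.3% of the normal air cells at equal depth, a log2 difference of -2.18 (SE 0.53, adjusted p = 0.643). Ltbp2, a latent TGF-beta binding protein of microfibrils, was at 725 and 523 CPM against 1668 and 1365 CPM (log2 -1.28, SE 0.299, adjusted p = 0.621). Mfap5, a microfibril glycoprotein, was at 703 and 689 CPM against 1454 and 2486 CPM. Lox, the enzyme that crosslinks elastin, was at 29.1 and 70.0 CPM against 116 and 88.2 CPM, and Efemp2, which brings Lox to elastin, was higher, at 327 and 284 CPM against 222 and 197 CPM.

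Among the collagens, the large fibrillar chains overlapped. Col1a1 was at 1879 and 2424 CPM under hyperoxia against 2607 and 2358 CPM in normal air, and Col3a1 at 2363 and 3520.2 CPM against 3403 and 3156 CPM. Col14a1 and Col12a1, which associate with collagen fibrils, did not overlap between groups and did not pass the adjusted threshold on summed reads or at either thinned depth. Col14a1 was at 87.0 and 84.0 CPM against 262 and 210.03 CPM (log2 -1.46, SE 0.386, adjusted p = 0.869), and Col12a1 at 220.4 and 279 CPM against 478 and 497 CPM.

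Of the matricellular genes, Postn (periostin) was at 516 and 836 CPM against 1695 and 1180.3 CPM and fell at 50000 reads a cell (log2 -1.41, adjusted p = 0.0408). Cyr61 and Ctgf, targets of the mechanically controlled factor YAP, were also lower in both mice, Cyr61 at 2654 and 1948 CPM against 5136 and 3690.3 CPM (log2 -0.94, SE 0.228, adjusted p = 0.643) and Ctgf at 48.4 and 45.3 CPM against 159 and 101 CPM. Thrombospondin 2 (Thbs2) was at 246 and 159 CPM against 499 and 418 CPM, and fibronectin (Fn1) at 256 and 228 CPM against 486 and 379 CPM. Mgp ran opposite to this group. Matrix Gla protein, an inhibitor of calcification and of BMP signals, was at 1326 and 1209 CPM against 353 and 303 CPM (log2 1.95, SE 0.276, adjusted p = 0.15), and at equal depth it rose by 2.04 (SE 0.254, adjusted p = 0.0144). The P1 mice had 1414 and 1788 CPM of Mgp. A read was present in 82.5% and 93.3% of the thinned hyperoxia cells and in 34.7% and 31.7% of the normal air cells.

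Acta2, smooth muscle actin, was at 12135 and 11012 CPM under hyperoxia against 9429 and 11955 CPM in normal air (log2 0.12, SE 0.233). Myh11, the smooth muscle myosin heavy chain, was at 642 and 674 CPM against 862 and 1054 CPM (log2 -0.54, SE 0.253, adjusted p = 1), and Tagln, an actin-binding protein, was higher, at 514 and 690.3 CPM against 437 and 450.01 CPM. Of 27 contractile proteins tested 9 lay below and 4 above, where all genes gave 19.8% and 16.9%. Myocd, the master factor of the programme, was at 565 and 612 CPM against 738 and 670.3 CPM. A cytoplasmic actin stood out from this list's genes, although it is not a member: Actb was at 10601 and 17381 CPM against 5039 and 6386 CPM, and it rose at 50000 reads (log2 1.28, adjusted p = 0.00806).

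Regulators and receptors were mixed. The forkhead factors of lung mesenchyme Foxf1 and Foxf2 were both higher, Foxf2 at 182 and 262 CPM against 158 and 90.3 CPM. Neither passed the threshold on summed reads or at either thinned depth. By plate (library-size CPM), Foxf1 was at 438 and 452 in the female hyperoxia mouse against 417 and 394 in the female in normal air. In the males it was at 553 and 709 against 261 and 289. The female plates of Foxf2 overlapped, at 159 and 233 against 192 and 120. Ednrb, the endothelin B receptor, was at 603 and 1123 CPM against 248 and 420.001 CPM, with 683 and 1400.1 CPM at P1, and rose at 50000 reads (log2 1.52, adjusted p = 0.0306). The muscarinic receptor Chrm3, which drives airway constriction in the adult, was all but absent, with 0.146 and 0 CPM against 0.019 and 0 CPM. Of 14 tone receptors tested 2 were above and 4 below, of 20 contractile regulators 6 and 4, and of 22 calcium handling genes 3 and 6. Over all genes 16.9% lay above and 19.8% below.

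**Figure D4:**
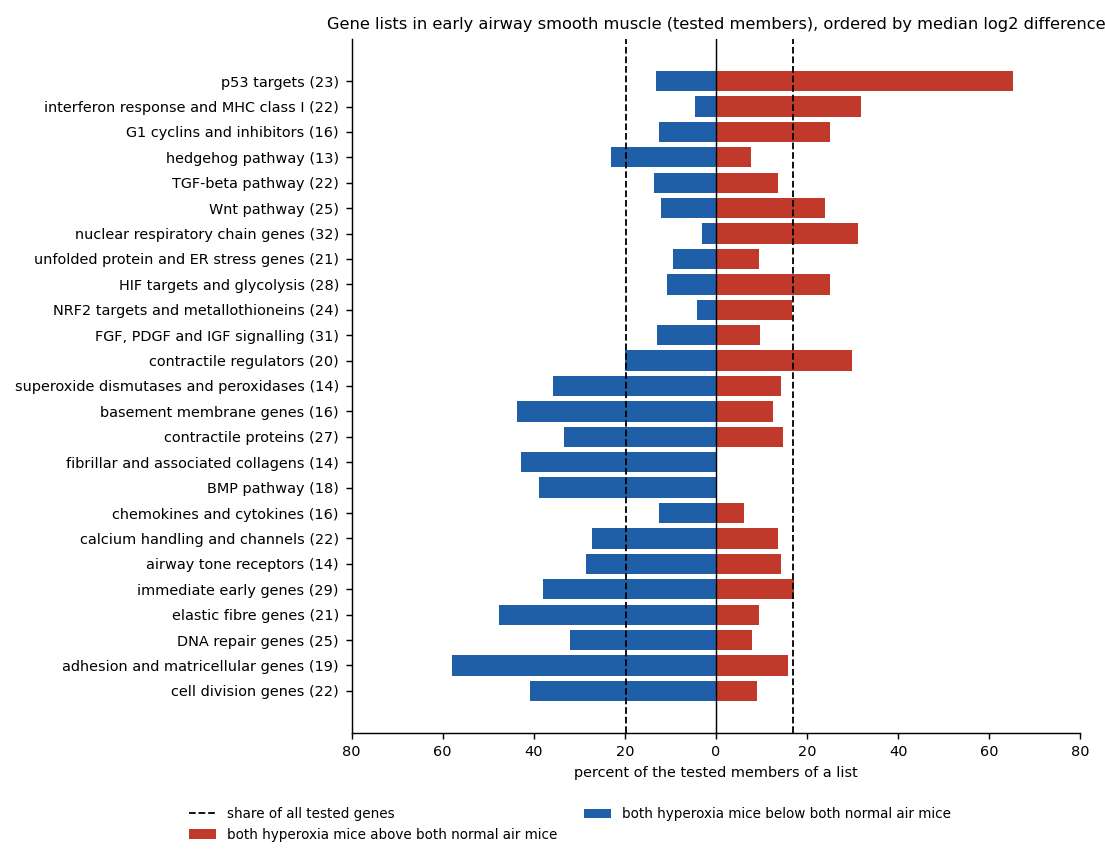
Share of the tested members of 25 gene lists with both hyperoxia mice above (red, right) or below (blue, left) both normal air mice, with the shares over all tested genes as dashed lines (16.9% above, 19.8% below); lists are ordered by median log2 difference and the number tested is in brackets. The bar of p53 targets reaches furthest right, and the bars of matricellular and elastic fibre genes furthest left.

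Wif1, a secreted Wnt inhibitor, was at 997 and 550.1 CPM under hyperoxia against 83.2 and 86.6 CPM in normal air, with 280.0 and 496 CPM at P1. It differed by 3.19 on the log2 scale (SE 0.424, adjusted p = 0.121) and rose by 2.92 at equal depth (adjusted p = 0.0144), where 75.4% and 93.3% of the hyperoxia cells held a read against 22.7% and 30.2%. Of 25 Wnt pathway genes, Wif1 included, 6 were above and 3 below. Spry2, a feedback inhibitor of FGF receptors, was at 55.0 and 113 CPM against 14.3 and 16.6 CPM (log2 2.35, SE 0.589, adjusted p = 0.68), while the receptor Fgfr1 was at 69.8 and 108 CPM against 199 and 155 CPM and the ligand Fgf7 at 99.4 and 52.4 CPM against 165 and 191 CPM. Igf1, a growth factor of muscle, was at 1792 and 1958 CPM against 1049 and 1233 CPM (log2 0.72, SE 0.249, adjusted p = 1). In the BMP list 7 of 18 genes lay below and none above, among them Bmp1, a protease that matures collagens and Lox, at 199 and 210.2 CPM against 435 and 304 CPM. Of 22 TGF-beta pathway genes 3 were above and 3 below, among them Skil, a repressor of the pathway, at 320.4 and 558 CPM against 213 and 201 CPM. Of 31 FGF, PDGF and IGF genes 3 were above and 4 below, and of 13 hedgehog genes 1 and 3. The shares over all genes, for each list of this paragraph, were 16.9% above and 19.8% below.

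Sod1, the cytoplasmic superoxide dismutase, was at 378 and 590.1 CPM under hyperoxia against 129 and 192 CPM in normal air, 1.59 higher on the log2 scale (SE 0.297, adjusted p = 0.37), and it rose at 50000 reads (1.91, adjusted p = 0.0108). Gpx7, a peroxidase of the endoplasmic reticulum, was at 135 and 117 CPM against 252 and 282 CPM. Of 14 superoxide dismutases and peroxidases 2 were above and 5 below. Of 24 targets of the antioxidant factor NRF2 and metallothioneins 4 were above and 1 below, close to the background for genes above, and the median was 0.01. At 100000 reads a cell 5 of 22 were above and 5 below, with a median of -0.10, where all genes gave 17.1% and 20.1%. Nuclear genes of the respiratory chain lay above in 10 of 32 and below in 1, with a median of only 0.06. Interferon response and MHC class I genes lay above in 7 of 22 and below in 1. B2m, the light chain of MHC class I, was at 424 and 666 CPM against 326 and 364 CPM. Oasl2, an interferon-induced gene, had 18.2 and 49.8 CPM against 0 and 0.0162 CPM, and 74.5% of its reads in the male hyperoxia mouse came from 1 cell. Of 16 chemokines and cytokines 1 was above and 2 below. HIF targets and glycolysis genes lay above in 7 of 28 and below in 3, and Ldha, which makes lactate, was at 1212 and 1025 CPM against 699 and 744 CPM. Of 21 genes of the unfolded protein response 2 were above and 2 below. The background for all of these lists was 16.9% above and 19.8% below.

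Several genes chosen by the smallest p or by a call at 50000 reads belong to none of the lists. None of those in this paragraph passed the threshold on summed reads or in the first thinning to 100000 reads. Cavin1, a coat protein of caveolae, was at 1319 and 2211 CPM against 461 and 585 CPM and rose at 50000 reads (log2 1.66, adjusted p = 0.0108). Sdc4, a heparan sulphate proteoglycan of focal adhesions, was at 680.1 and 846 CPM against 172 and 279 CPM, with 697 and 734 CPM at P1, and rose too (1.56, adjusted p = 0.0306). Gnb1, a G protein beta subunit, was at 1387 and 2443 CPM against 543 and 702 CPM, and Lrrc8a, a subunit of the volume-regulated anion channel, at 120.1 and 306 CPM against 24.0 and 53.4 CPM. Both rose at 50000 reads (adjusted p = 0.0108 and 0.00848). Arglu1, a nuclear protein, was at 245 and 502 CPM against 72.1 and 120.3 CPM, and rose too (adjusted p = 0.0306). Dpysl2 (log2 1.33), Ttyh2 (3.17), Set (1.78) and Kdelr2 (1.63) rose at that depth as well, with adjusted p between 0.0108 and 0.0415. Psrc1, a spindle-associated protein, had 1804 and 314 reads under hyperoxia and none in either normal air or P1 mouse. This was at least 2457-fold higher against a floor of 3 counts over the group (counting error only). Few cells gave these reads. At equal depth, 13 of 57 cells of the female hyperoxia mouse and 2 of 15 of the male held a Psrc1 read. By plate, the library-size CPM of Psrc1 were 52.0 and 45.2 in the female hyperoxia mouse and 0 and 69.1 in the male. The fitted value of Psrc1 at 50000 reads passed the threshold (adjusted p = 0.0306).

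Prss12, a secreted protease known from neurons, was at 89.6 and 35.0 CPM under hyperoxia against 328 and 298 CPM in normal air and fell at 50000 reads (log2 -2.22, adjusted p = 0.0306). The P1 mice held 43.2 and 45.4 CPM of it. Krt7, an epithelial keratin, had 0 reads in both hyperoxia mice against 12.2 and 10.5 CPM, at least 185-fold lower by the same floor, but it came from 5.33% and 3.17% of the normal air cells and moved with the epithelial markers given above. Rab31, a vesicle GTPase, was at 246 and 217 CPM against 575 and 544 CPM, and Peg3, a paternally expressed zinc finger gene, at 119.8 and 55.5 CPM against 284 and 291 CPM. Neither passed the threshold at any of the 3 depths.

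Several of these genes were read side by side with the P1 mice. P1 and hyperoxia are each compared with the same 2 normal air mice, so no share or correlation between the comparisons is given. For Mgp and Sdc4 the hyperoxia and the P1 mice all lay above P7 in normal air, and for Eln, Fbln5 and Prss12 all below it. For Nfkbia, Nr4a1 and Atf3 the P1 mice were above P7 in normal air and the hyperoxia mice below it. For Cdkn1a and Phlda3 the hyperoxia mice stood above all 4 mice in normal air, Phlda3 at P1 being 61.8 and 51.1 CPM.

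The effect of hyperoxia in early airway smooth muscle was set against that in 3 other subtypes of the same 4 mice, with the mouse as a block. Against myofibroblasts, the contractile cells of alveolar septa, 0 of 13918 genes (0%) differed in effect, with 695 at an unadjusted p under 0.05. Against early alveolar fibroblasts 2 of 15043 differed (0.0133%), and against vascular smooth muscle 1 of 13218 (0.00757%).

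**Figure D5:**
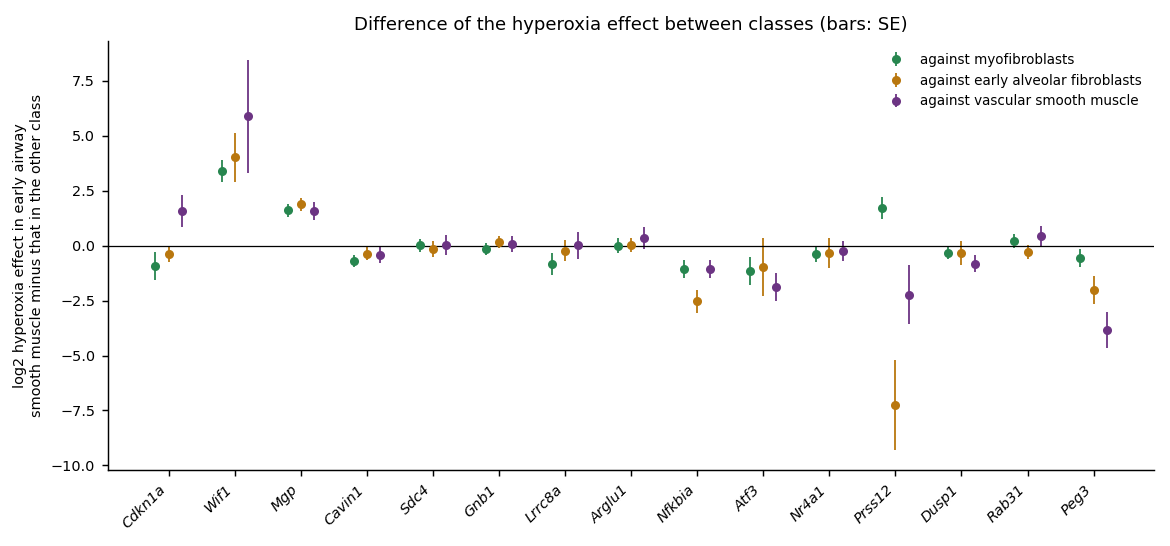
Difference on the log2 scale between the hyperoxia effect in early airway smooth muscle and that in 3 other subtypes of the same mice (points, bars SE) for 15 named genes. Wif1 and Mgp lie above 0 against all 3 subtypes, Sdc4, Gnb1, Arglu1 and Rab31 lie near 0, and the points of Wif1 against fibroblasts and vascular muscle rest on subtypes with almost no Wif1 reads.

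Cdkn1a was higher in hyperoxia in every one of these subtypes. In myofibroblasts it stood at 2808 and 2881 CPM against 82.8 and 58.4 CPM, in early alveolar fibroblasts at 955 and 1029 CPM against 87.2 and 15.0 CPM, and in vascular smooth muscle at 938 and 754 CPM against 130.6 and 108 CPM. The effect in airway muscle differed from these by -0.94 (SE 0.648), -0.39 (SE 0.362) and 1.58 (SE 0.718) on the log2 scale, none past the threshold (adjusted p of 0.935, 1 and 1). Mgp was different. In early alveolar fibroblasts it was at 1951 and 2623 CPM under hyperoxia against 2440.0 and 2071 CPM in normal air, so its groups overlapped there. The difference of the effects was 1.88 (SE 0.299, adjusted p = 0.35) on summed reads and 2.04 at equal depth, where it passed the threshold (adjusted p = 0.0284). Against myofibroblasts and vascular muscle the Mgp difference was 1.61 and 1.58 (adjusted p = 0.923 and 1). Ltbp2 differed in direction, lower under hyperoxia in airway muscle but at 235 and 193 CPM in alveolar fibroblasts under hyperoxia against 91.2 and 69.3 CPM, a difference of -2.78 (SE 0.284, adjusted p = 0.0979), past the threshold at equal depth (adjusted p = 0.0124).

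The genes past the threshold on summed reads turn on subtypes that had almost no reads in one condition. Ddit4l, a stress-induced inhibitor of mTOR, was at 145 and 150.5 CPM against 46.8 and 71.1 CPM in airway muscle, while alveolar fibroblasts had 2788 and 3242 reads under hyperoxia and 2 reads and 1 read in normal air. Ifitm10, a membrane protein, was at 85.2 and 154 CPM against 115 and 347 CPM in airway muscle, with 188 and 615 reads against 2 and 1 in alveolar fibroblasts. Tgfbi, an abundant adhesion protein of airway muscle, was at 11578 and 9995 CPM against 9722 and 8297 CPM there, while vascular smooth muscle had 2 reads and 1 read under hyperoxia and 1692 and 2537 in normal air. The sizes of these 3 differences depend on the prior count of the fit. At equal depth Ogn (osteoglycin, a small proteoglycan) and Enpp1 (a pyrophosphate-making enzyme) also differed from myofibroblasts, with adjusted p of 0.0155 and 0.0102. Ogn was at 381 and 207 CPM against 135 and 114 CPM in airway muscle and at 23.5 and 6.02 CPM against 89.4 and 64.7 CPM in myofibroblasts. Enpp1 was at 118 and 248 CPM against 367 and 371 CPM in airway muscle and at 4.31 and 5.18 CPM against 91.6 and 103 CPM in myofibroblasts.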

How the data were processed

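Single cells from distal lung were sorted into plates and sequenced without molecular identifiers, per the labels' protocols. The authors deposited raw read counts for 18072 genes in 5480 cells, with 0 mitochondrial genes. STAR 2.5.2b, HTSeq 0.10 and the human build GRCh38 are named in the submitters' processing notes, although the organism is mouse, so the build of the counts is uncertain. The strand setting is not given in the sources used here, and reads of overlapping genes cannot be told apart. No doublet caller was run.

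Cell subtypes are those the authors gave. Counts were summed per mouse and fitted in 6 libraries with edgeR 4.0.16 in R 4.3.3 (quasi-likelihood test, TMM scaling, filterByExpr, treatment group and sex as terms, 2 residual degrees of freedom, Benjamini-Hochberg adjustment over all genes tested, threshold 0.05, two-sided). All adjusted p of genes are from this tool unless another is named. CPM are TMM-scaled unless given as library-size CPM. Cells were thinned to 100000 or 50000 reads, leaving out shallower cells. limma 3.58.1 (voom) and DESeq2 1.42.0 were alternatives. With 2 mice a group, p-values speak for these mice only. In edgeR the spread of each gene is also drawn toward that of the other genes (7.41 prior degrees of freedom). Fold bounds use a floor of 3 counts over a group, and share intervals are 95% Wilson intervals. Python 3.11.15, numpy 2.4.6 and pandas 2.3.3 handled the tables, and the fits were tested on simulated data.

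Named genes are those past the threshold or, failing that, the 8 with the smallest unadjusted p in each direction, if either group averaged 10 CPM or more and both sexes had the same direction. Members of the 37 gene and marker lists with such a level may be named too, and up to 5 genes per subtype comparison. Actb, Psrc1, Set, Kdelr2, Dpysl2 and Ttyh2 were outside this rule and were named after their values were seen, because they passed the threshold at 50000 reads a cell or, for Actb, also in the second draw. The members and the lists were chosen with earlier results of these data known.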

Additional observations from a re-analysis of the deposited data

Results flagged for a closer look

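Ddit4l and Ifitm10 differed in their response to hyperoxia between early airway smooth muscle and early alveolar fibroblasts, by -9.43 and -8.44 on the log2 scale (edgeR, adjusted p = 0.0363 for each). Both rest on alveolar fibroblasts with 2 reads and 1 read in normal air, so the sizes depend on the prior count. Tgfbi differed between airway and vascular smooth muscle by 9.66 (adjusted p = 0.00139), where vascular muscle had 2 reads and 1 read under hyperoxia. Cdkn1a stood at 1327 CPM in the 6 early airway smooth muscle cells of the wells left out of the comparison, above the 139.6 and 24.7 CPM of the normal air mice. These cells carry the label of the male hyperoxia mouse.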

How the results depend on the processing

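Against 0 genes called on summed reads (514 at an unadjusted p under 0.05), the count was 3 at 100000 reads a cell, 6 in a second draw of that thinning (chosen after seeing the data), 25 at 50000 reads, 1 with RLE scaling, 6 with no filter on low counts, 17 with limma voom, 5 with the 4 mice at P7 and sex, and 223 with DESeq2. It was 0 with no sex term, with the 4 mice at P7 and no sex term, with the left-out wells kept and without the CD31-sorted cell. Leaving out 1 mouse gave 0 to 24 calls: 24 without the female or the male P1 mouse, 1 without the female in normal air, 2 without the male hyperoxia mouse and 0 without the others. Effects that differed from myofibroblasts numbered 2 at 100000 reads and 1 with no filter. From early alveolar fibroblasts they numbered 10 at 100000 reads, 4 with sex in place of the mouse block and 3 with no filter. From vascular smooth muscle they numbered 7, 2 and 2. The share differed by -1.59 to -0.21 when 1 mouse was left out. Among named genes 1583 values kept their direction and side of the threshold, 152 passed it in addition and 9 changed sign, all with 1 mouse left out. The ranges over mice left out were -1.37 to 0.0189 for Plk2, -9.265 to 0.08428 for Cdk1, -14.8 to 5.361 for Top2a, -0.6893 to 0.09571 for Fos, -0.2564 to 0.6017 for Junb, -0.4986 to 0.1031 for Col3a1 and -0.1075 to 0.289 for Acta2. The cause was not tested. The mice carry no shared replicate numbers, and sex, with 1 female and 1 male a group, is a term of the fit. The male hyperoxia mouse gave 16 cells.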
